A study of Mus musculus with 6 samples.

Results

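Aminoacyl-tRNA synthetases are the enzymes that load each transfer RNA with its amino acid, and their genes were followed here in E0771 mouse mammary tumour cells and in a population of the same line selected for metastasis to the lung. The genes were chosen by symbol: 20 symbols of enzymes that charge tRNA in the cytosol and 16 symbols of nuclear-encoded mitochondrial enzymes, which carry a final 2. Of these 36 symbols, 35 were matched to at least 1 array probe set that the array's annotation assigns to that gene alone, out of 18193 genes represented in this way. Expression of Dars, the aspartyl enzyme, was not analysed here. The methionyl enzyme Mars is listed by the annotation as Mars1. All 19 remaining cytosolic genes and 15 of the 16 mitochondrial genes passed the signal filter, so 34 of the 9361 tested genes are synthetases.

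E0771 is a mammary tumour line from the C57BL/6 mouse strain. The parental group was 3 cultures of unselected E0771 cells. The HML2 group was 3 cultures of E0771-HML2, the second generation of a selection in which C57BL/6 hosts, syngeneic to the line, received E0771 cells in the mammary fat pad and cells that had reached the lung were recovered. Both groups were grown for 3 days in medium with 10% serum and penicillin and streptomycin, no treatment separated them, and 1 array was hybridised per culture. The labels call the cultures biological replicates without naming the animals behind each HML2 culture, and the p-values therefore rest on culture-to-culture spread alone. RNA came from whole cultures, in which a change in the make-up of the population and a change within each cell cannot be told apart. Values are MAS5 signals, a linear hybridisation intensity per probe set; differences are HML2 minus parental on the log2(signal + 50) scale with their standard error (SE), and a gene was called where the limma p, adjusted over all tested genes by the Benjamini-Hochberg method, was below 0.05.

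Synthetases join an amino acid to the matching tRNA at the cost of ATP, releasing pyrophosphate, and mammalian cells use separate nuclear genes for most cytosolic and mitochondrial enzymes. Gars and Kars are exceptions, since each encodes both forms. Several cytosolic enzymes sit in a multisynthetase complex with 3 scaffold proteins, while the others are free. When uncharged tRNA accumulates, the kinase GCN2 phosphorylates the initiation factor eIF2, and translation of the transcription factor ATF4 rises. Many cytosolic synthetase genes are known ATF4 targets, together with genes of amino acid synthesis and uptake.

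Wars, Sars, Aars, Gars, Rars, Cars, Kars, Iars and Lars among the cytosolic synthetase genes and Wars2 among the mitochondrial ones were higher in HML2 cells. Of the 19 cytosolic genes, HML2 cells had 9 higher and 0 lower, where 12.3% of all tested genes were called higher and 14.9% lower. At an unadjusted limma p below 0.05 the cytosolic counts were 12 higher and 0 lower, where 18.3% of all tested genes were higher and 20.9% lower. The median difference of the cytosolic genes was 0.42, against -0.02 over all tested genes, and 17 of the 19 differences were positive. Among the 15 mitochondrial genes 1 was higher and 0 lower, with 2 higher and 0 lower at an unadjusted p below 0.05. Their median difference was 0.16, with 12 positive. The HML2 arrays all lay above the parental arrays for 11 cytosolic and 2 mitochondrial genes, as they did for 20.6% of all tested genes. The gap between the compartments' medians was 0.26, and 0.10 without replicate 1 of both groups; it was not tested, since enzymes are not replicates.

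**Figure D1:**
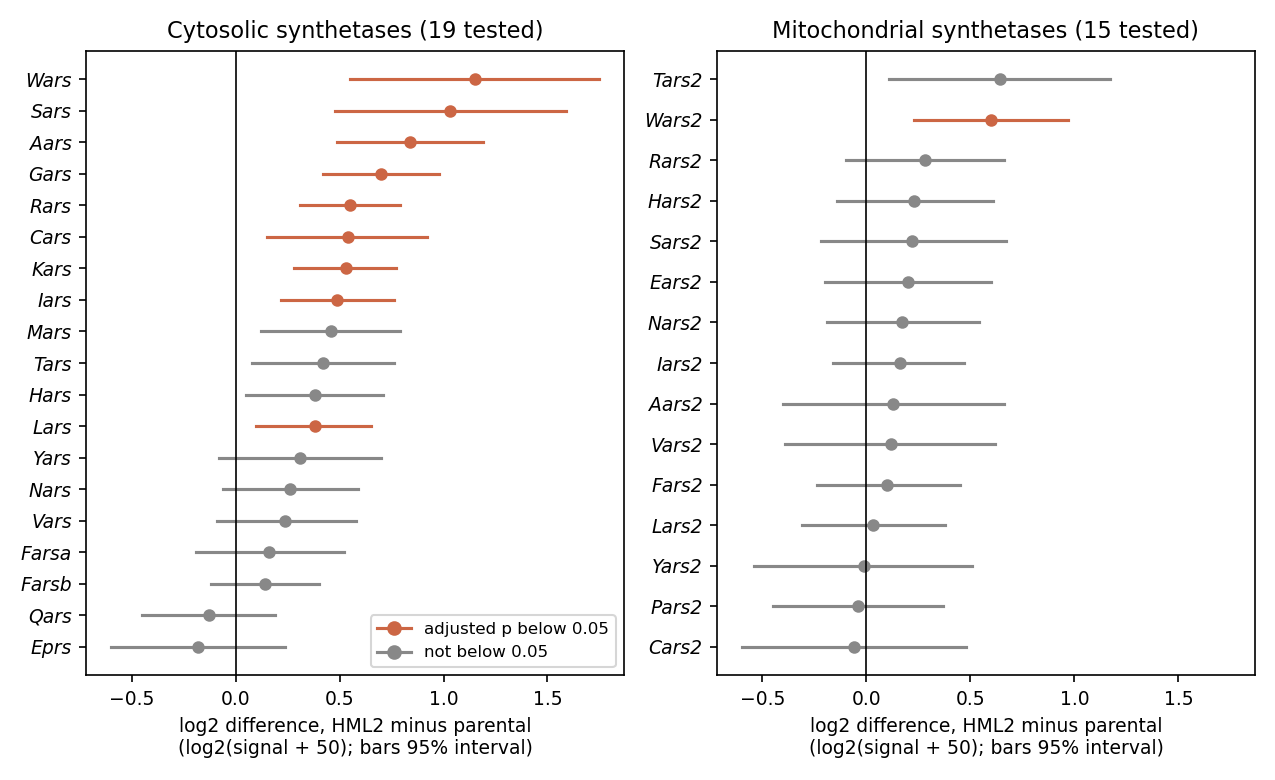
Log2 differences of the 34 tested synthetase genes, HML2 minus parental, on the log2(signal + 50) scale, with cytosolic enzymes in the left panel and mitochondrial enzymes in the right. Points are estimates, bars are 95% intervals of the difference and orange marks adjusted p below 0.05: 9 cytosolic genes and Wars2 are called, and only Eprs and Qars among the cytosolic genes lie below 0.

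Wars, the cytosolic tryptophanyl enzyme, had the largest difference of the 34 genes, 1.15 ± 0.26 (SE; adjusted p = 0.013). Its signals were 261, 337 and 242 in the parental cultures and 1059, 500 and 577 in the HML2 cultures, with means of 279.9 ± 49.9 and 712 ± 303 (SD, n = 3). The lowest HML2 array was above the highest parental array, and HML2 replicate 1 stood far above the others of its group. Sars, which charges tRNA with serine, read 3133, 2522 and 2271 in parental and 8202, 4245 and 4557 in HML2 cells, a difference of 1.03 ± 0.24 (adjusted p = 0.015). Here too the groups did not overlap and HML2 replicate 1 was the highest. Without HML2 replicate 1 the differences were 0.84 for Wars and 0.74 for Sars, and both genes were still called. Leaving out parental replicate 3 ended the call of Wars (1.07, adjusted p = 0.063) and of Sars (0.93, adjusted p = 0.071), and without parental replicate 2 the adjusted p of Sars was 0.053.

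Aars, Gars, Rars and Kars were called in the fit and in each of the 17 alternative settings that were run. Aars, the alanyl enzyme, had signals of 2502, 2990.3 and 2719 in parental and 6147, 4366 and 4495 in HML2 cells (0.84 ± 0.15, adjusted p = 0.0051). Gars, which makes the glycyl enzyme of cytosol and mitochondria, had signals of 6657, 8078 and 7211 in parental and 13782, 10916 and 11136 in HML2 cells (0.70 ± 0.12, adjusted p = 0.0047). For both genes the HML2 cultures were all above the parental ones, by a margin wider than the spread within the parental group. Rars, the arginyl enzyme, went from 6422, 7078 and 6471 to 10756, 9451 and 9089 (0.55 ± 0.10, adjusted p = 0.0062). Kars, the lysyl enzyme, went from 4620.2, 5381 and 4631 to 6905, 7510.1 and 6698 (0.53 ± 0.11, adjusted p = 0.0088). In Kars, unlike the preceding genes, HML2 replicate 1 was in the middle of its group.

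Iars, Cars and Lars, the isoleucyl, cysteinyl and leucyl enzymes, were called with less margin. Iars had signals of 4609, 5057 and 6001 in parental and 7533, 7051 and 7319 in HML2 cells, a tight HML2 group above a wider parental one (0.49 ± 0.12, adjusted p = 0.018). Cars had signals of 1633, 1913 and 1674 against 3254, 2132 and 2359 (0.54 ± 0.17, adjusted p = 0.047), so that its nearest arrays, parental replicate 2 and HML2 replicate 2, were close. Lars had signals of 5506, 6342 and 5724 against 8719.7, 7018 and 7170.3 (0.38 ± 0.12, adjusted p = 0.047). The groups of all 3 genes were separate. The call of Iars was lost without parental replicate 1 (0.40, adjusted p = 0.063), parental replicate 2 (0.47, 0.055) or HML2 replicate 3 (0.49, 0.060). The call of Cars was lost without parental replicate 1 (0.49, adjusted p = 0.13), 2 (0.60, 0.071) or 3 (0.51, 0.15) or HML2 replicate 3 (0.59, 0.086). Lars was lost when any single array was left out, with differences of 0.28 without HML2 replicate 1, 0.43 without HML2 replicate 2, 0.42 without HML2 replicate 3 and 0.33, 0.43 and 0.36 without parental replicates 1, 2 and 3, at adjusted p from 0.059 to 0.15.

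**Figure D2:**
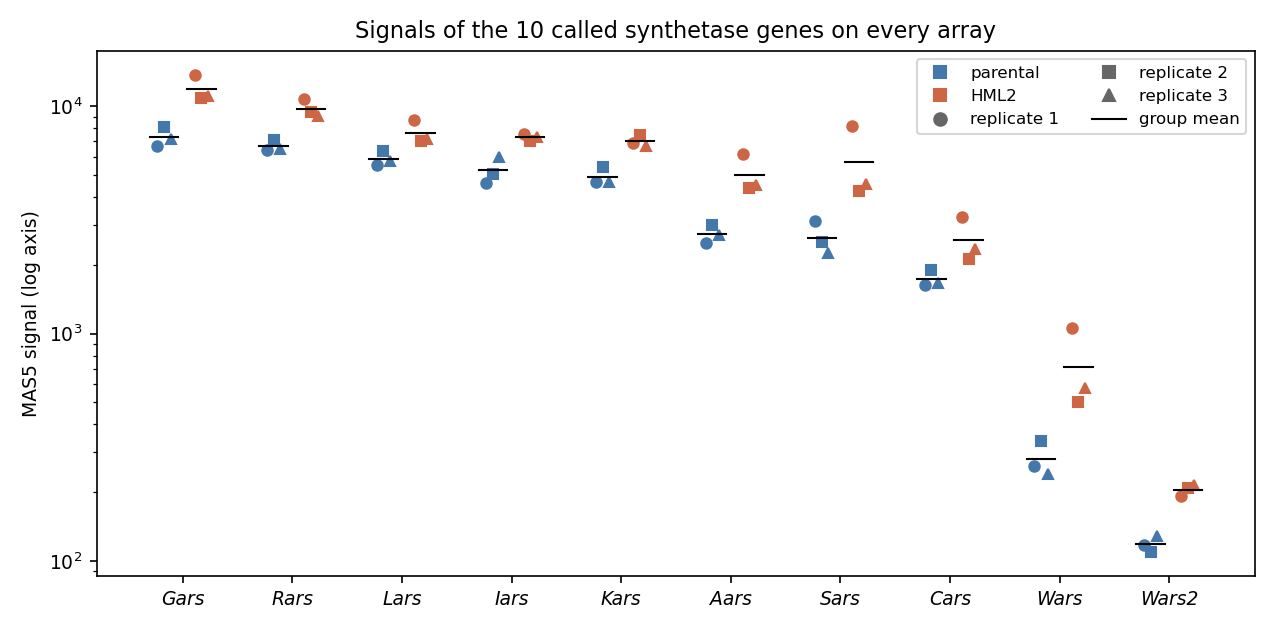
MAS5 signal on a log axis for the 10 called synthetase genes, ordered by parental mean, with parental arrays in blue, HML2 arrays in orange, marker shape for the replicate number and a black line at each group mean. Signals of different genes come from different probes and are not comparable as RNA amounts; within each gene the 3 HML2 arrays lie above the 3 parental arrays, and HML2 replicate 1 is highest for 8 of the 10 genes.

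The promoters of the cytosolic genes were searched for the C/EBP-ATF composite element, the DNA sequence that ATF4 binds with a C/EBP partner, because several of these genes are known ATF4 targets. The letters searched were TGATGNAA on both strands, within the RefSeq windows of 250 bases before to 50 bases after each gene's start (build GRCm38.p6). Of all 32851 windows, 3.97% held a match. Windows were found for 13 cytosolic symbols, including Dars, which has no expression value here. Of these genes 5 (38.5%) had a match: Aars, Gars, Iars, Tars and Yars. No match stood in the 15 windows of 14 mitochondrial genes, which include Mars2, a gene below the signal filter. Windows for Cars, Hars, Lars, Nars, Rars, Vars, Wars, Hars2 and Pars2 were not used here. The matching stretches are shown so that the element can be seen in its setting; they are written 5′ to 3′ on the gene's strand, with the matching letters in capitals. Before and after the start refer to the matching letters, since the stretches with a match after the start also hold bases before it. The Aars stretches lie at chr8:111033684-111033783 and chr8:111033829-111033858 on the plus strand, with the match of the former before and that of the latter after the gene's start. The Gars stretch at chr6:55037925-55038000 (plus) and the Tars stretch at chr15:11399659-11399719 (minus) have their match before the start. The Iars stretch at chr13:49682115-49682144 (plus) and the Yars stretch at chr4:129189884-129189913 (plus) have their match after the start.
Aars, before the start: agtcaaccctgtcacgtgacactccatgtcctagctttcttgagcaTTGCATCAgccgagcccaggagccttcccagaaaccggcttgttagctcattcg
Aars, after the start: tgacaaggcgtagcgggtcactTTTCATCA
Gars: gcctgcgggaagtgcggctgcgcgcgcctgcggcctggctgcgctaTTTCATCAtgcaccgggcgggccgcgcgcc
Iars: gttgagcctggcactgtcagtaTTGCATCA
Tars: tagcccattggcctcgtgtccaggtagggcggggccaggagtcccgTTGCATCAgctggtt
Yars: caagcggagcgacgagctcagcTGATGCAA
Aars was the only one of the 5 with 2 matches. In all but Yars the letters searched stood on the opposite strand, so that the gene's strand, as printed, reads TTGCATCA or TTTCATCA. Aars, Gars and Iars were called higher, whereas Tars (0.42) and Yars (0.31) had positive differences that were not called. Sars (1.03) and Kars (0.53), also called higher, had a window without a match. For the called genes Cars, Lars, Rars and Wars no window was searched. A match is a run of letters and not a measured binding site, and genes with no match in this window may hold one elsewhere.

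Of the 10 cytosolic genes that were not called, Mars, Tars and Hars came nearest. Mars, the methionyl enzyme, read 4153, 5911 and 5139 in parental and 7698, 6197 and 6874 in HML2 cells (0.46 ± 0.15, adjusted p = 0.052), with separate groups. Tars, the threonyl enzyme, read 4844, 6637 and 5376 against 8729.8, 6863 and 6922 (0.42 ± 0.15, adjusted p = 0.070), also with separate groups. Hars, the histidyl enzyme, read 5767, 7456 and 6658 against 7284, 9913 and 8832 (0.38 ± 0.14, adjusted p = 0.082), and its groups overlapped because HML2 replicate 1 lay below parental replicate 2. With a block for the replicate number all 3 were called, at adjusted p = 0.039 for Mars, 0.049 for Tars and 0.0055 for Hars, which brought the cytosolic count to 12 higher where 17.8% of all tested genes were called higher. Over all alternatives their adjusted p ranged from 0.0036 to 0.15 for Mars, from 0.0058 to 0.21 for Tars and from 0.0012 to 0.24 for Hars. Without HML2 replicate 1 Hars was called (0.50, adjusted p = 0.013), and without parental replicate 2 Mars (0.57, 0.036) and Tars (0.54, 0.039) were called.

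The tyrosyl enzyme Yars (0.31 ± 0.17), the asparaginyl enzyme Nars (0.26 ± 0.14) and the valyl enzyme Vars (0.24 ± 0.15) had positive differences with 95% intervals that included 0, and without HML2 replicate 1 these were 0.20, 0.12 and 0.14. The subunits of the phenylalanyl enzyme, Farsa (0.16 ± 0.16) and Farsb (0.14 ± 0.11), differed least from 0 among the genes with positive differences. The upper ends of their intervals, -0.19 to 0.52 and -0.12 to 0.40, exceed the difference of the called gene Lars (0.38). Qars, the glutaminyl enzyme, differed by -0.13 ± 0.14, with an interval of -0.45 to 0.19. Eprs, which makes a fused glutamyl and prolyl enzyme, had signals of 7751, 8938 and 6801 in parental and 9149, 6001 and 5906 in HML2 cells (-0.18 ± 0.18, adjusted p = 0.51). HML2 replicate 1 had the highest Eprs signal of all 6 arrays and the other HML2 arrays the lowest ones. Without HML2 replicate 1 Eprs was called lower, at -0.38 with an adjusted p of 0.037, and over all alternatives its adjusted p ranged from 0.037 to 0.85. It was then the 1 cytosolic gene called lower, where 19.7% of all tested genes were called lower.

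The mitochondrial genes gave a single call. Wars2, the mitochondrial tryptophanyl enzyme, had signals of 118, 109.6 and 129 in parental and 193, 209.9 and 215 in HML2 cells, which is 119 ± 9.63 against 206 ± 11.7 (SD, n = 3; 0.60 ± 0.16, adjusted p = 0.027). The groups were clearly apart, and HML2 replicate 1 was the lowest of the HML2 arrays. These signals are not far above the filter of 100, and the call was lost without parental replicate 1 (0.60, adjusted p = 0.069), 2 (0.56, 0.072) or 3 (0.64, 0.070) and without HML2 replicate 2 (0.59, 0.078) or 3 (0.57, 0.090). Tars2, the threonyl enzyme, had the largest mitochondrial difference, 0.64 ± 0.23, but was not called (adjusted p = 0.074). Its signals were 106, 192 and 199.9 in parental and 350, 235 and 264 in HML2 cells, with separate groups, while parental replicate 1 lay well below its group. The other 13 tested mitochondrial genes had overlapping groups and differences from -0.06 for Cars2 to 0.28 for Rars2.

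The mitochondrial partners of the called cytosolic genes, other than Wars2, were not called. Sars2 (seryl) had signals of 69.8, 111 and 93.4 in parental and 106, 131 and 107 in HML2 cells and passed the filter only through the HML2 mean (91.5 against 114; 0.22 ± 0.20). Aars2 (alanyl) had signals of 117, 181 and 104 against 113, 147 and 193 (0.13 ± 0.23), fully intermixed. Rars2 (arginyl) had signals of 663, 1000.4 and 816 against 928, 1081 and 1002 (0.28 ± 0.17), and its overlap came from parental replicate 2. Iars2 (isoleucyl) had signals of 1079, 954 and 1039.6 against 1319, 1045 and 1095 (0.16 ± 0.14), where HML2 replicate 1 stood above the rest. In Lars2 (leucyl), with 762, 776 and 716 against 639, 882 and 809 (0.03 ± 0.15), and in Cars2 (cysteinyl), with 305, 402 and 400 against 231, 451 and 405 (-0.06 ± 0.24), HML2 replicate 1 was instead the lowest of all arrays. The 95% intervals of these 6 genes included 0. Mars2, the methionyl enzyme, did not pass the filter. It read 62.5, 57.6 and 107 in parental and 93.8, 106 and 171 in HML2 cells, and these groups overlapped. In the fit without a signal filter Mars2 differed by 0.46 ± 0.26, with a 95% interval of -0.12 to 1.05. Of the rest, Hars2 (0.23), Ears2 (0.20), Nars2 (0.17), Vars2 (0.12) and Fars2 (0.10) had positive and Yars2 (-0.01) and Pars2 (-0.04) negative differences, with adjusted p from 0.33 to 0.97. Yars2 (tyrosyl) also had its lowest signal, 603, on HML2 replicate 1. Probe sets of mitochondrial genes read lower as a group, with mean signals of 103 to 1089 (median 366) against 496 to 10779 (median 5995) for the cytosolic genes, and their median SE was 0.18 against 0.15. Among all tested genes with a mean signal below 1000, 10.0% were called higher, and among those at or above 1000, 14.9%. The part of signal level in the difference between the compartments was not tested.

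Compared amino acid by amino acid, the cytosolic enzyme had the larger difference in 13 of 16 pairs in which both genes were tested. The widest gaps were in the pairs for serine, with 1.03 for Sars and 0.22 for Sars2, and for alanine, with 0.84 for Aars and 0.13 for Aars2. For cysteine the values were 0.54 for Cars and -0.06 for Cars2. The tryptophan pair was the only one with both members called, at 1.15 for Wars and 0.60 for Wars2. The mitochondrial gene had the larger difference in 3 pairs, Tars2 over Tars (0.64 and 0.42) and Ears2 (0.20) and Pars2 (-0.04) over the shared cytosolic partner Eprs (-0.18). The gap was within the sum of the standard errors for threonine and proline and just beyond it for glutamate. Among pairs with the larger cytosolic difference, it was also within that sum for phenylalanine (Farsa and Farsb), histidine, asparagine, valine and tyrosine. For arginine the gap was about equal to the sum. It was larger than the sum for alanine, cysteine, isoleucine, leucine, serine and tryptophan. Pairs are not replicates, since Eprs and Fars2 each stand in 2 of them, and no test was made over them.

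**Figure D3:**
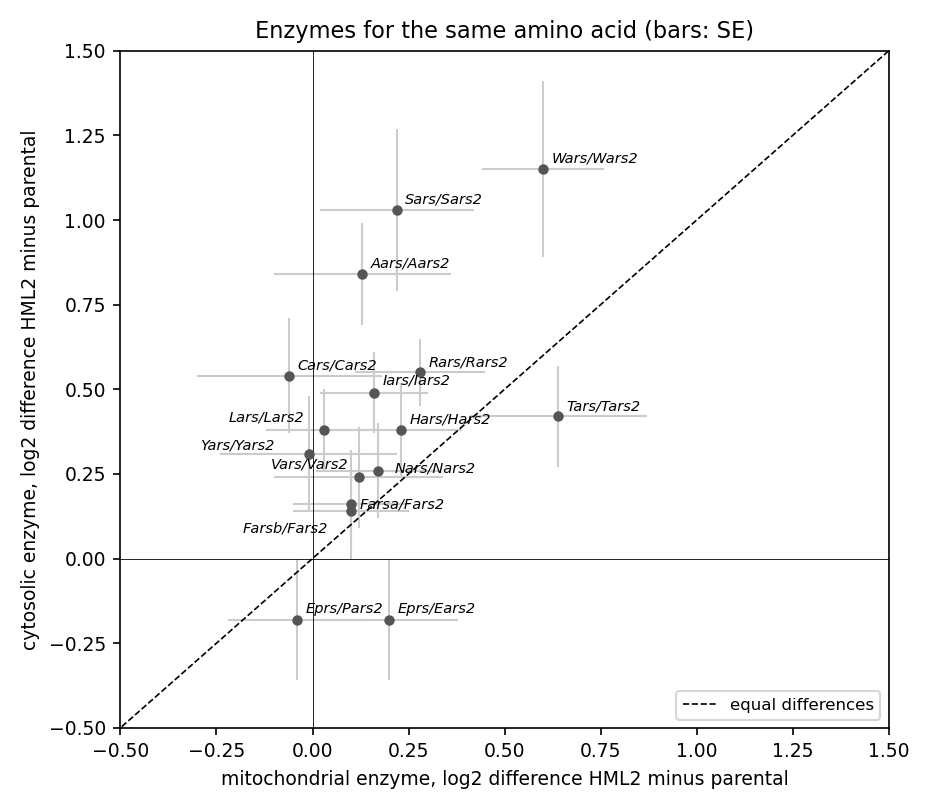
Log2 difference (HML2 minus parental, log2(signal + 50)) of the cytosolic enzyme on the vertical axis against that of the mitochondrial enzyme for the same amino acid on the horizontal axis, for the 16 pairs with both genes tested, with bars of 1 SE. In 13 pairs the point lies above the dashed line of equal differences, and the pairs for tryptophan, serine and alanine lie highest.

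Within the cytosolic set, enzymes of the multisynthetase complex and free enzymes had similar medians. Of the 7 tested complex members 4 were called higher (Rars, Kars, Iars and Lars), with a median of 0.46. Of the 12 free genes 5 were called higher (Wars, Sars, Aars, Gars and Cars), with a median of 0.40. Over all tested genes 12.3% were called higher and 14.9% lower. Beyond the medians, all 4 differences above 0.60 belonged to free enzymes, while both negative differences, of Eprs and Qars, belonged to the complex. By structural class, 5 of 9 class I genes (median 0.46) and 4 of 9 class II genes (median 0.42) were called. Eprs, which has a domain of each class, was counted in neither. This grouping was made after the values were seen.

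Further probe sets of the same genes mostly moved in the same direction. Of the 34 genes, 17 had more than 1 probe set above the filter, and in 13 of these all probe sets had differences of 1 sign. All 4 probe sets of Wars had HML2 arrays above parental arrays. The one with the largest difference, 1.32, passed the filter only through its HML2 signals and had to differ; the other 3 had differences of 0.89, 0.96 and 1.15. The arrays were separate in the same way on both probe sets of Aars (0.84 and 1.00), Sars (0.95 and 1.03), Iars (0.36 and 0.49), Wars2 (0.51 and 0.60) and Tars2 (0.56 and 0.64). For Nars the probe sets gave unlike values, 0.26 for the brighter and 0.69 for the other, whose HML2 signals of 14965, 10285 and 10741 all exceeded the parental 6660.1, 7865 and 7431. With probe sets averaged Nars was called (0.48, adjusted p = 0.042, in a range over alternatives of 0.042 to 0.65). The 4 genes with mixed signs were Eprs, Farsa, Farsb and Vars2, none of them called. Gars, Kars, Rars, Cars and Lars rest on 1 probe set each.

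The cytosolic shift was not equal on the 3 HML2 arrays. The median deviation of the 19 cytosolic genes from the parental mean was 0.56, 0.30 and 0.42 on HML2 replicates 1, 2 and 3, and -0.08, 0.15 and -0.05 on parental replicates 1, 2 and 3. All 3 HML2 medians were thus above all 3 parental medians, with the least distance between parental replicate 2 and HML2 replicate 2. HML2 replicate 1 had the highest signal of all 6 arrays for 14 of the 19 cytosolic genes and for 5 of the 15 mitochondrial genes. The mitochondrial medians were 0.15, 0.22 and 0.16 on the HML2 arrays and -0.00, 0.12 and 0.03 on the parental arrays. Without HML2 replicate 1 the cytosolic count was still 9 higher, where 16.8% of all tested genes were called higher, and the median was 0.36. Without replicate 1 of both groups the cytosolic median fell to 0.24. What set HML2 replicate 1 apart was not tested.

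**Figure D4:**
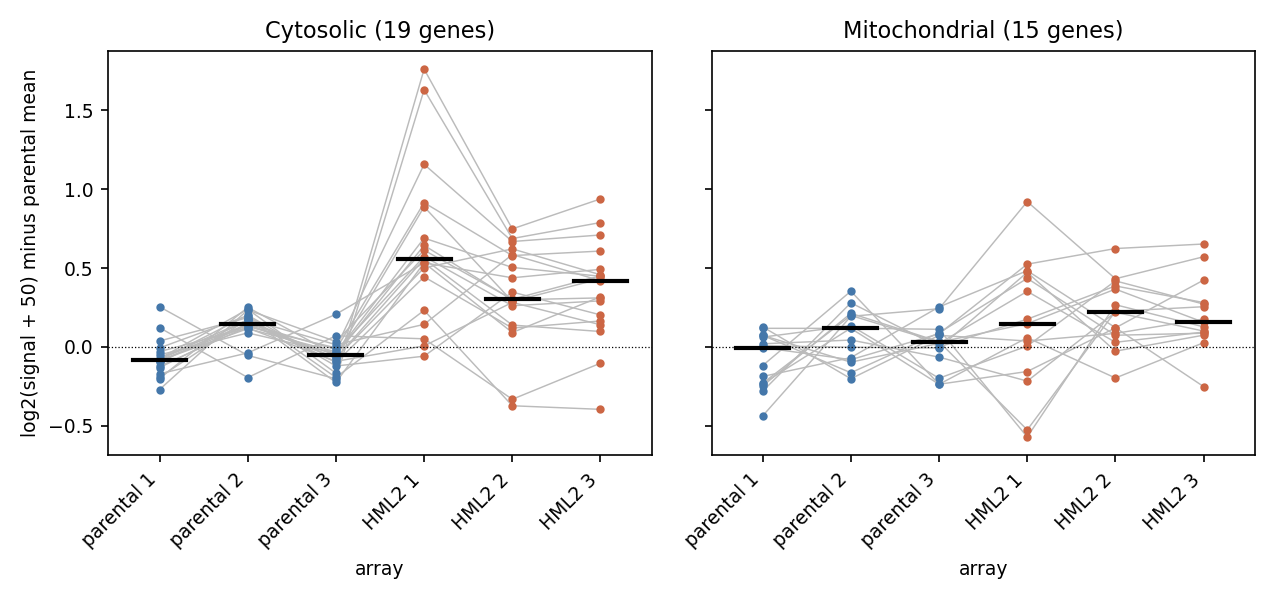
Deviation of each synthetase gene from its parental mean on every array, in log2(signal + 50), for 19 cytosolic genes (left) and 15 mitochondrial genes (right); grey lines join the values of a gene and black bars are medians. The cytosolic medians are 0.56, 0.30 and 0.42 on the HML2 arrays, the mitochondrial ones 0.15, 0.22 and 0.16, and the highest single values are on HML2 replicate 1.

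Neighbouring genes were read beside the synthetases, without a test of the regions. Around each synthetase gene, the nearest 10 tested genes on either side were examined, with order taken from the RefSeq gene table. The highest count called in 1 direction was 10 of 20, lower, around Farsb, where 14.9% of all tested genes were called lower and 12.3% higher. The 20 neighbours of Wars had a median difference of 0.33 and 8 of them were called higher, and those of Wars2 had a median of 0.28 with 7 called higher, against 1.15 and 0.60 for the genes themselves. The other tested genes of the chromosome that Wars2 shares with Sars and Tars2 had a median of 0.20, and those of the chromosome of Wars 0.15. The neighbours of Kars had a median of 0.34, those of Rars 0.24 and those of Aars and Gars 0.21 each. The neighbours of Sars, whose own difference was 1.03, had a median of 0.02, those of Iars -0.02, those of Cars -0.09 and those of Lars -0.18. Eprs, Farsb and Iars2 share a chromosome whose other tested genes had a median of -0.32, and their neighbours had medians of -0.34, -0.53 and -0.34. Against that surrounding, Farsb (0.14) and Iars2 (0.16) had positive differences and Eprs (-0.18) was less negative than its neighbours. Yars2 likewise lies on a chromosome with a median of -0.42 and differed by -0.01. The part of these regional values in the synthetase values was not tested.

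Among the scaffold proteins of the multisynthetase complex, 1 of 3 genes was called higher, where 12.3% of all tested genes were called higher and 14.9% lower. Eef1e1, which encodes the scaffold protein AIMP3, had signals of 3641, 4685 and 3953 in parental and 8575, 6854 and 6635 in HML2 cells (0.84 ± 0.14, adjusted p = 0.0037), with groups far apart. Aimp1 had a difference of 0.28 (adjusted p = 0.074), with separate groups, and was called with the replicate block (adjusted p = 0.039). Aimp2 differed by -0.05 ± 0.22, with overlapping groups.

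In the genes that act beside charging, single members were called, where 12.3% of all tested genes were called higher and 14.9% lower. Dtd1, which removes D-amino acids from tRNA, was the 1 of 5 editing, deacylase and paralogue genes to be called, going from 1664, 2694 and 2021 to 3287, 3243 and 2969 (0.59 ± 0.17, adjusted p = 0.036). That call was lost without parental replicate 1 (0.43, adjusted p = 0.11), parental replicate 3 (0.57, 0.12), HML2 replicate 2 (0.57, 0.090) or HML2 replicate 3 (0.63, 0.073). Aarsd1, an editing enzyme for mischarged alanyl tRNA, differed by 0.27 ± 0.14 (adjusted p = 0.20). Of the 2 inorganic pyrophosphatases, which split the pyrophosphate that charging releases, the mitochondrial Ppa2 was called, going from 1113, 1061 and 1069 to 1862, 1707 and 2052 (0.76 ± 0.12, adjusted p = 0.0032). The cytosolic Ppa1 differed by 0.27 ± 0.21 with overlapping groups. Of 4 genes for mitochondrial formyl-methionyl and glutaminyl tRNA formation, limma called 0 in either direction. At an unadjusted p below 0.05, Mtfmt (0.33) and Qrsl1 (0.51) were higher, where 18.3% of all tested genes were higher. Qrsl1 was called with the replicate block (adjusted p = 0.013).

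Among genes that handle tRNA before and after charging, Trnt1 and Xpot were called higher. For this and the lists below, 12.3% of all tested genes were called higher and 14.9% lower. Trnt1, which adds the CCA end to tRNA, had signals of 2688, 3593 and 3386 in parental and 6805, 5386 and 5433 in HML2 cells (0.86 ± 0.15, adjusted p = 0.0042). Xpot, the exporter of tRNA from the nucleus, had signals of 7297, 8451 and 7852 against 12129, 11614 and 11542 (0.58 ± 0.09, adjusted p = 0.0033). The Xpot value rests on its brightest probe set, and with probe sets averaged the difference was -0.02. These were the 2 called among 6 tRNA export and processing genes (median 0.36). Of 5 cytosolic elongation genes limma called 0 in either direction, also at an unadjusted p below 0.05. At the adjusted threshold, 0 of 5 genes is not far from the shares over all tested genes. Their differences spanned -0.06 to 0.14. Eef1a1, which delivers charged tRNA to the ribosome, read 38545, 44341 and 37228 in parental and 39673, 41660 and 35588 in HML2 cells, with no separation. Eif5a, which keeps elongating ribosomes moving, differed by 0.13 ± 0.08 (adjusted p = 0.25). Of 8 mitochondrial translation factors 2 were called higher, the initiation factor Mtif2 (0.59 ± 0.13, adjusted p = 0.013) and the ribosome recycling factor Mrrf (0.45 ± 0.14, adjusted p = 0.040), and all 8 differences were positive (median 0.32). Mtif2 lost its call without HML2 replicate 3 (0.56, adjusted p = 0.057). Mrrf lost it without any single array except HML2 replicate 1, at adjusted p from 0.054 to 0.15.

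Atf4 itself was higher in HML2 cells. Its signals were 7888, 9149 and 8238 in parental and 17054, 12679 and 12514 in HML2 cells, 8425 ± 651 against 14082 ± 2575 (SD, n = 3), a difference of 0.73 ± 0.14 (adjusted p = 0.0058) that was 0.58 without HML2 replicate 1. HML2 replicate 1 was the highest, as for Aars and Gars, and the other HML2 arrays were close together. Of the 6 tested genes of amino acid sensing, Atf4 was the only one called higher and Impact, which inhibits GCN2, the only one called lower. Over all tested genes 12.3% were called higher and 14.9% lower. Impact went from 2479, 2416 and 2581 to 1477, 1851 and 2004 (-0.49 ± 0.14, adjusted p = 0.033). The Impact call was lost without any single array except HML2 replicates 1 and 3, with adjusted p from 0.064 to 0.12. Eif2ak4, the gene of GCN2, differed by -0.06 (adjusted p = 0.83).

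Of 22 tested ATF4 targets other than synthetases, 10 were called higher and 0 lower by limma, where 12.3% of all tested genes were called higher and 14.9% lower. At an unadjusted p below 0.05 the counts were 11 higher and 0 lower, against 18.3% and 20.9% of all tested genes. The median difference was 0.49. The amino acid transporter subunits Slc7a5 (0.99 ± 0.18, adjusted p = 0.0051) and Slc3a2 (0.81 ± 0.25, adjusted p = 0.042), which together form a carrier of large neutral amino acids, were both higher, the latter by 0.50 without HML2 replicate 1. Slc7a5 went from 4316, 4000.4 and 4030 to 11127, 7677 and 6556, with wide separation. Psph, the last enzyme of serine synthesis, went from 2669, 3514 and 2958 to 10108, 6036 and 6567 (1.27 ± 0.20, adjusted p = 0.0027). Trib3, a pseudokinase induced by amino acid stress, had the largest difference, 1.68 ± 0.48 (adjusted p = 0.034), but its HML2 signals were 5626, 1214 and 1846, so that a single array carried most of the mean; without HML2 replicate 1 the difference was 1.05. Trib3 lost its call without parental replicate 1 (1.74, adjusted p = 0.077), 2 (1.84, 0.065) or 3 (1.45, 0.13) or HML2 replicate 3 (1.84, 0.056), and Slc3a2 without parental replicate 1 (0.82, 0.096), 2 (0.92, 0.065) or 3 (0.68, 0.15). The other called targets were Ddit4, which was called in every alternative, and Asns, Shmt2, Mthfd2, Chac1 and Eif4ebp1, which were not. Asns was lost without parental replicate 3 (0.68, adjusted p = 0.063) and Mthfd2 without parental replicate 1 (0.58, 0.088) or 3 (0.65, 0.096). Chac1 was lost without parental replicate 1 (0.80, 0.084), 2 (0.88, 0.063) or 3 (0.73, 0.12), and Eif4ebp1 likewise (0.61, 0.067, then 0.61, 0.064 and 0.54, 0.11). The call of Shmt2 ended on leaving out parental replicate 1 (0.36, 0.11), parental replicate 3 (0.38, 0.13), HML2 replicate 2 (0.45, 0.062) or HML2 replicate 3 (0.44, 0.077). Without HML2 replicate 1 Chac1 (0.53) and Eif4ebp1 (0.39) were still called at smaller differences. Of the 12 targets not called, Ddit3 (1.31), Slc7a11 (1.05), Sesn2 (0.33), Cebpb (0.28), Psat1 (0.25), Nupr1 (0.25), Slc38a2 (0.13) and Cebpg (0.08) had positive differences. Slc7a11 passed the filter only through its HML2 signals. Atf3 was at 0.00, and Phgdh (-0.04), Slc7a1 (-0.05) and Atf5 (-0.17) had negative differences. Leaving out HML2 replicate 1 gave 0.64 for Ddit3, 0.31 for Slc7a11, -0.55 for Atf3 and -0.48 for Atf5. The median deviation of the list on the HML2 arrays was 1.04, 0.31 and 0.36, so HML2 replicate 1 stood 0.69 above the median of the other HML2 arrays, compared with 0.30 for the cytosolic synthetases. In all, 18 of 61 genes in these related lists were called higher and 1 lower, again beside 12.3% and 14.9% of all tested genes.

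**Figure D5:**
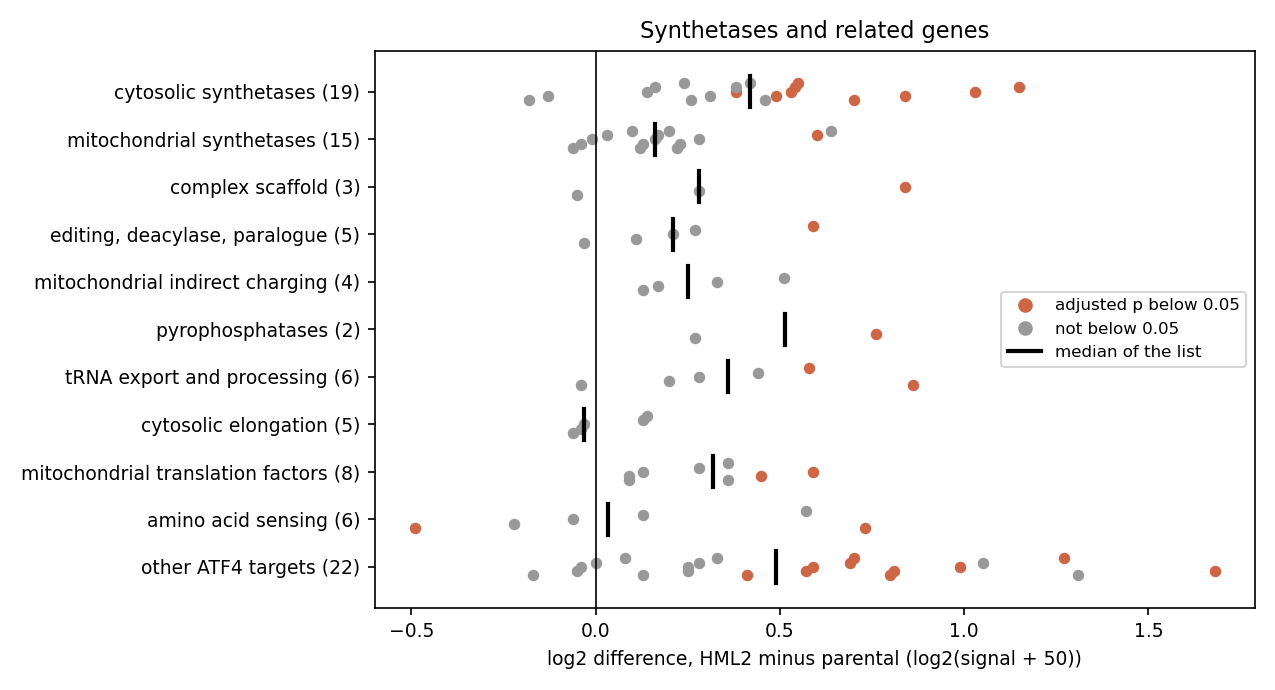
Log2 difference (HML2 minus parental, log2(signal + 50)) of every tested gene in the synthetase sets and the related lists, with the number tested in brackets, adjusted p below 0.05 in orange and the median of each list as a black bar. The medians are 0.42 for cytosolic and 0.16 for mitochondrial synthetases, 0.49 for other ATF4 targets and -0.03 for cytosolic elongation; a lone orange point below 0 is Impact.

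Wars is also a known target of interferon-gamma, and its signals were read beside a list of such targets. Of 9 tested genes of that list 0 were called higher and 4 lower (Psmb8, Psmb9, Tap1 and Ifi47), against 12.3% and 14.9% of all tested genes. Their median difference was -1.30, whereas Wars was called higher. With a block for the replicate number 0 were higher and 7 lower, Ifit1, Ifit3 and Igtp in addition, where 17.8% of all tested genes were called higher and 19.6% lower. Irf1 (-0.21, adjusted p = 0.34 without the block) and Irgm1 (-0.09, 0.87) were called in neither fit. Ifi47 (means of 174 and 29.0) and Ifit3 (means of 164 and 49.8) passed the signal filter only through their parental signals, so that they had to differ. At an unadjusted limma p below 0.05 the counts were 0 higher and 5 lower in the fit without the block, against 18.3% and 20.9% of all tested genes. Psmb8, an immunoproteasome subunit, went from 3398, 3294 and 2914 to 243, 101 and 106. Within each group replicate 1 read highest on this list, by 0.96 over the other parental arrays and by 0.94 over the other HML2 arrays. Wars was likewise highest on replicate 1 among the HML2 arrays, but not among the parental ones. Ifi47 was lost without parental replicate 1 (-1.15, adjusted p = 0.089) or 3 (-1.60, 0.075) or HML2 replicate 2 (-1.36, 0.076) or 3 (-1.27, 0.089).

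Signal coverage was alike on all arrays: between 39.7% and 41.6% of probe sets reached a signal of 100, and bacterial control probe sets, which gauge background, read 1.97 to 36.2. The 3' to 5' ratio of the Gapdh controls was 0.77 to 0.816 (exact two-sided permutation p = 0.7) and that of beta-actin 1.36 to 1.53 (p = 0.1, the smallest that 3 against 3 arrays allow), with all HML2 beta-actin ratios below the parental ones. Of the epithelial markers, Krt8 was higher in HML2 cells (1095 against 4175, adjusted p = 8.1e-05). Epcam went the other way at low signals (133 and 83.5) and passed the filter only through its parental signals. Its HML2 arrays all lay below the parental ones (-0.45 ± 0.20, adjusted p = 0.12), and with probe sets averaged limma called it lower (-1.14, adjusted p = 0.0044). Krt18 (34.2 and 86.0) and Cdh1 (22.9 and 19.4) were below the filter, so of these 4 markers Krt8 was the only one well above the filter. Summed over all 4 epithelial markers the signals were 1241 to 1352 in parental and 3776 to 5054 in HML2 cells, most of it from Krt8. For other cell types the ranges were 402 to 447 and 204 to 473 for 5 leukocyte markers, 98.8 to 179.9 and 121 to 206 for 3 lung epithelial markers, 28.3 to 48.0 and 157 to 285 for 3 endothelial markers, and 2443 to 4429 and 1127 to 2087 for 4 fibroblast markers. Ptprc, Scgb1a1 and Pecam1, which define leukocytes, airway cells and endothelium, were at or below the bacterial control level on all arrays. The other endothelial markers, below the filter over all arrays, were higher on every HML2 array than on any parental one: Icam2 read 5.99, 5.13 and 8.05 against 94.1, 228 and 208, and Cdh5 32.1, 17.4 and 8.91 against 56.4, 36.5 and 72.4. By name, the leukocyte gene Lyz2, which passed the filter only through its parental signals, read 192 and 78.9 (adjusted p = 0.0074) and Csf1r read 114 and 93.2, the lung gene Sftpb read 83.2 and 120.3, and of the fibroblast genes Pdgfra fell from 1954 to 873 (adjusted p = 0.0052) and Pdgfrb read 1323 and 592 (adjusted p = 0.053, and 0.002 with the replicate block). The part of these differences in the synthetase values was not tested.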

How the data were processed

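The authors deposited linear intensities, a single one for each probe set on each array; MAS5 is the tool named, per the submitters' processing notes. Its version, and any genome build, is not given in the sources used here. The deposited values have the same trimmed mean (500, leaving out 2% at each end) on all 6 arrays, so a difference in total messenger RNA is not seen. Of 45101 probe sets, 64 were controls, 34945 had 1 gene symbol, 932 several and 9160 were not listed in the annotation; 34741 were found in a RefSeq gene table. A probe set shared by Aars and Exosc6 was left out, and 72 remained for the synthetases.

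Signals were converted to log2(signal + 50), which understates changes of low signals. Only probe sets whose signal averaged 100 or more were kept, and the one with the highest mean log2 value stood for its gene. Testing used lmFit and trended eBayes of limma 3.58.1 (R 4.3.3), with the group as the only term; the code was tested on simulated data. The number of arrays limits the precision.

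Replicate numbers 1 to 3 occur in both groups. Deviations of same-numbered arrays from their group means correlated across genes at 0.45, 0.34 and 0.24, above the bound of 0.1, and parental replicate 2 and HML2 replicate 3 also at 0.24. The numbers were therefore treated as pairing the arrays in an alternative with a replicate block; the labels do not say what the number stands for. Alternatives changed the offset, filter, normalization, probe set rule, trend, array weights and the arrays used; leaving out replicate 1 of both groups was added after seeing the data.

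All synthetases are reported. Signals on every array were given by rule for called synthetases, their partner enzymes and the 4 largest differences not called; in each related list up to 4 called genes with the largest difference were named, filled up to 2 by the brightest. Signals of Eprs, Mars2 and a further Nars probe set, and the names of Aimp1, Eif2ak4, Asns, Shmt2, Mthfd2, Chac1, Ddit4, Eif4ebp1, Ifit1, Ifit3, Igtp, Krt18, Cdh1, Icam2 and Cdh5, were added after the values were seen. The names of Irf1, Irgm1 and the ATF4 targets not called were added then too. The members, lists and rules were chosen with earlier results of these data known. Promoter sequences are from RefSeq.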

Additional observations from a re-analysis of the deposited data

How the results depend on the processing

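No synthetase gene that was called changed direction under any alternative run: of 574 values over genes and settings, 522 kept their call or lack of one, 29 lost a call, 23 gained one and 0 called values changed sign. Array weights gave the highest counts, with 2422 genes higher and 2631 lower, 15 cytosolic and 5 mitochondrial synthetases higher (25.9% of all genes), and 31 related genes higher and 2 lower. Without a signal filter 7 cytosolic synthetases, 0 mitochondrial synthetases and 11 related genes were higher, where 5.07% of all 18193 genes were higher. With a mean signal of at least 200 again 0 mitochondrial synthetases were higher, of 11 then tested, since Wars2 was removed by that filter. Quantile normalization gave 2 mitochondrial synthetases higher and a mitochondrial median of 0.22, as did median centring (0.22). Among the related lists 0 genes were lower with median centring or with probe sets averaged, and Xpot was at -0.02 with probe sets averaged; the cause was not tested. Without replicate 1 of both groups 1 cytosolic gene was lower, the cytosolic median was 0.24 and the gap between compartments 0.10. The share of calls that were higher was 45.3%, and 53.5% with median centring, which moved the median of all genes to 0.04.

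Leaving out 1 array at a time gave 590 to 1577 genes higher and 795 to 1845 lower, 5 to 9 cytosolic synthetases higher and 0 to 1 lower, 0 to 1 mitochondrial higher and 0 lower, 10 to 22 related genes higher and 0 to 1 lower. The medians were 0.33 to 0.48 (cytosolic) and 0.12 to 0.21 (mitochondrial), and their gap 0.16 to 0.35. The lowest counts, 590 genes and 5 cytosolic synthetases, came without parental replicate 3. With the replicate block 12 cytosolic and 1 mitochondrial synthetases and 24 related genes were higher, the medians did not move (0.42 and 0.16), and 1670 genes were higher and 1831 lower. Signals near the filter, as for Wars2, Tars2 and Sars2, limit what can be seen of the mitochondrial genes.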
